A study of Mus musculus with 6 samples.

Results

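The liver of a mouse fed ergosterol, the sterol of fungi, was compared with the liver of a mouse fed a high sitosterol diet, sitosterol being a major sterol of plants. All genes that reached 1 CPM (counts per 1e6 counts of the library) in at least 1 of the 2 liver libraries were analysed, which left 12143 of the 33639 gene symbols in the table. Both mice were male, lacked Abcg8 in the whole body, received a low sterol diet containing 0.005% ezetimibe (a blocker of intestinal sterol uptake) up to weaning, and then ate their sterol diet for 12 weeks. Each diet was represented by 1 mouse and 1 library, so no value has a replicate and no p-value was computed. A low sitosterol liver and a stigmasterol liver of the same genotype, sex and pre-weaning treatment are given beside the results as 2 further reference libraries. All 4 livers lacked Abcg8, so diet effects with a working Abcg8 gene are not addressed. The sources used here do not give sterol doses, age at collection, time of day or feeding state, and differences between 2 mice cannot be told apart from differences between 2 diets.

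Abcg8 and Abcg5 encode the partner proteins of a transporter that moves sterols from hepatocytes into bile and from enterocytes back into the gut lumen, and animals without it store dietary plant sterols. Sitosterol differs from cholesterol by an ethyl group on the side chain. Ergosterol instead carries a methyl group there, with further unsaturated bonds in the ring system and in the side chain. In liver, oxidised sterols and some plant sterols act through LXR nuclear receptors on sterol export and fatty acid synthesis, cell cholesterol acts through SREBP2 on sterol synthesis and uptake, bile acids act through FXR, and fatty acids act through PPARA.

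Levels are given as scaled CPM, which is the estimated count divided by the library total after TMM correction, and differences as the log2 ratio of ergosterol over high sitosterol with a 95% interval that covers counting error only. A gene is called higher or lower when it differs by 2-fold or more and its interval leaves out equality. By this rule 746 genes (6.14% of those analysed) were higher and 965 (7.95%) lower in the ergosterol liver, together 14.1% of all genes. The median log2 ratio over all genes was 0.03, 67.3% of genes lay within 1.5-fold, and the 5th and 95th percentiles were -1.32 and 1.11. These shares and this median are the background for every gene list below. In every list, a gene that reached 1 CPM in only 1 of the 2 libraries could be called only toward that library. The balance of calls depended on the unit and on the level limit. On counts 43.6% of calls were higher, but 56.6% (409 and 313) among genes at 10 CPM or more. The share was 55.1% (969 higher, 791 lower) on the log2(TPM + 0.1) scale and 58.2% (565 and 406) on the log2(TPM + 1) scale. Calls on TPM used the 2-fold limit alone, without a counting interval.

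**Figure D1:**
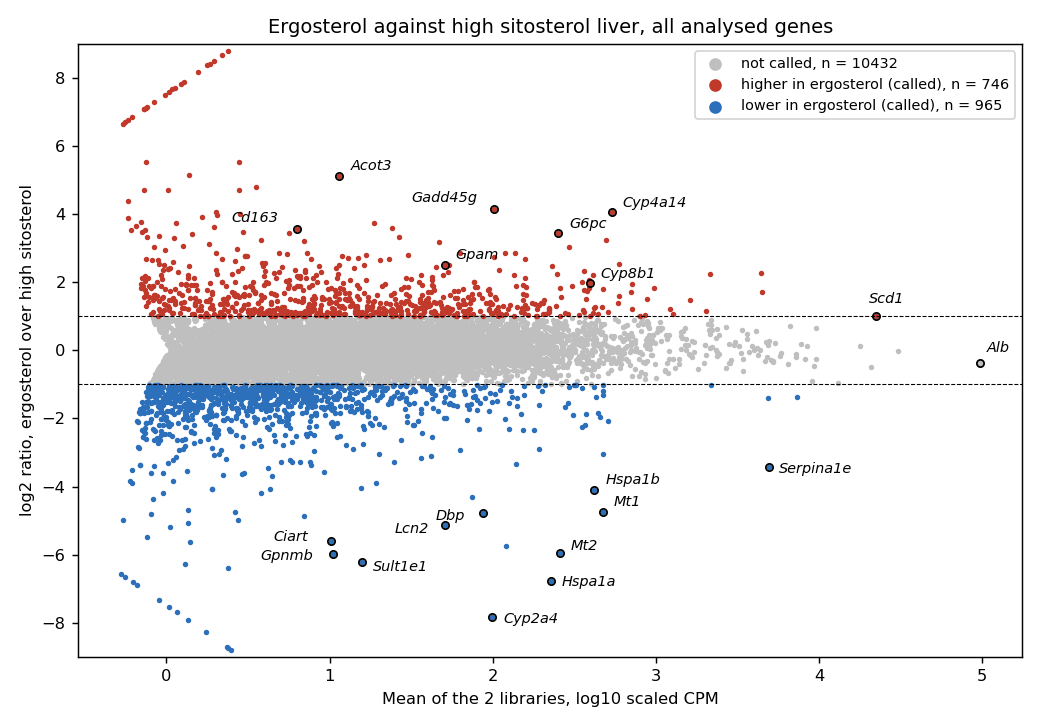
Each point is 1 of the 12143 genes; the x axis is the mean level of the 2 libraries (log10 scaled CPM) and the y axis the log2 ratio of ergosterol over high sitosterol, with dashed lines at 2-fold. Red points (746) are called higher and blue points (965) lower; 2 genes beyond 9 on the y axis, Mup15 among them, are not drawn.

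The libraries were similar in size, with 47789184 estimated counts for ergosterol and 48505003 for high sitosterol (49125137 and 50573364 for low sitosterol and stigmasterol), so a count of 0 allowed up to 0.0628 and 0.0618 CPM. TMM factors were 0.932 and 0.955 for the libraries compared, 0.833 for low sitosterol and 1.35 for stigmasterol. Alb (serum albumin) stood at 107958 scaled CPM on high sitosterol and 84177 on ergosterol and Eif2s3y, a Y-linked gene, at 30.4 and 33.2, and the labels give liver and male. None of the 6 kidney tubule or 6 skeletal muscle markers reached 1 CPM in either library. Of 10 adrenal cortex markers 4 did, among them Mrap (45.4 on high sitosterol and 56.8 on ergosterol), Cyp21a1 (2.91 and 0.988) and Star (1.38 and 1.80). The low sitosterol liver read 20.8 for Cyp21a1 and 25.5 for Star. Of 10 pancreatic acinar markers 1 did, Cela1 (9.05 and 8.42). Ratios also moved with transcript length. The median rose from -0.24 among genes whose longest annotated transcript spans 151 to 1497 bases to 0.22 among those of 6255 bases and more. The share of lower calls was 13.5% in the former group and 4.56% in the latter (Spearman's rho 0.20 across genes, which share these 2 libraries). The part of this trend in single results was not tested. For genes described below, ratios less the median of each length group are given where they end a call. Counts of calls in the lists are without this subtraction unless stated.

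**Figure D2:**
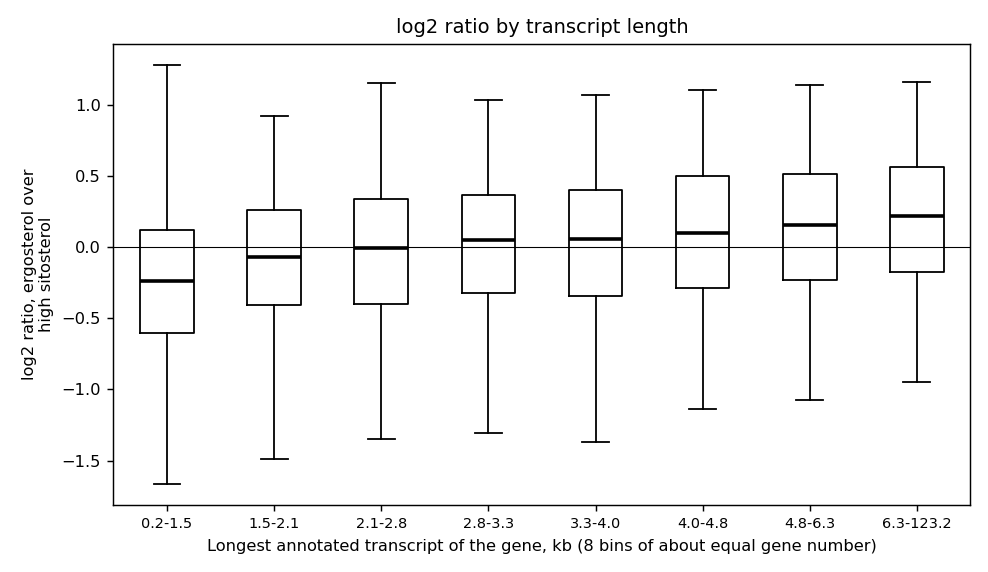
Boxes show the log2 ratio of ergosterol over high sitosterol (y axis) for 8 groups of genes by the length of the longest annotated transcript in kb (x axis), with quartiles, the median as a black line and whiskers at the 5th and 95th percentiles. The medians climb from -0.24 in the shortest group to 0.22 in the longest.

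Of 32 gene lists and 18 lists of cell type markers, the highest median log2 ratio among functional lists belonged to the major urinary proteins (1.57), followed by targets of the xenobiotic receptors CAR and PXR (0.99), male-biased liver genes (0.92) and PPARA targets (0.84). The male-biased list includes some major urinary protein genes, so these lists overlap. The lowest medians belonged to female-biased liver genes (-2.49, from 7 analysed members), chemokines and cytokines (-1.62) and cytosolic heat shock chaperones (-1.03). In the female-biased, the chemokine and some other lists, members passed the 1 CPM filter through a single library, which fixed their direction. Among marker lists, the genes of lipid-associated macrophages lay at -1.84. Nuclear oxidative phosphorylation subunits (21 genes, median 0.05) and mitochondrially encoded subunits (13 genes, -0.08, but 0.17 after the length groups were set to equal medians) had no called member. Cytosolic ribosomal proteins had none among 24 either, with a median of -0.35 that became -0.22 after the length groups were set to equal medians.

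**Figure D3:**
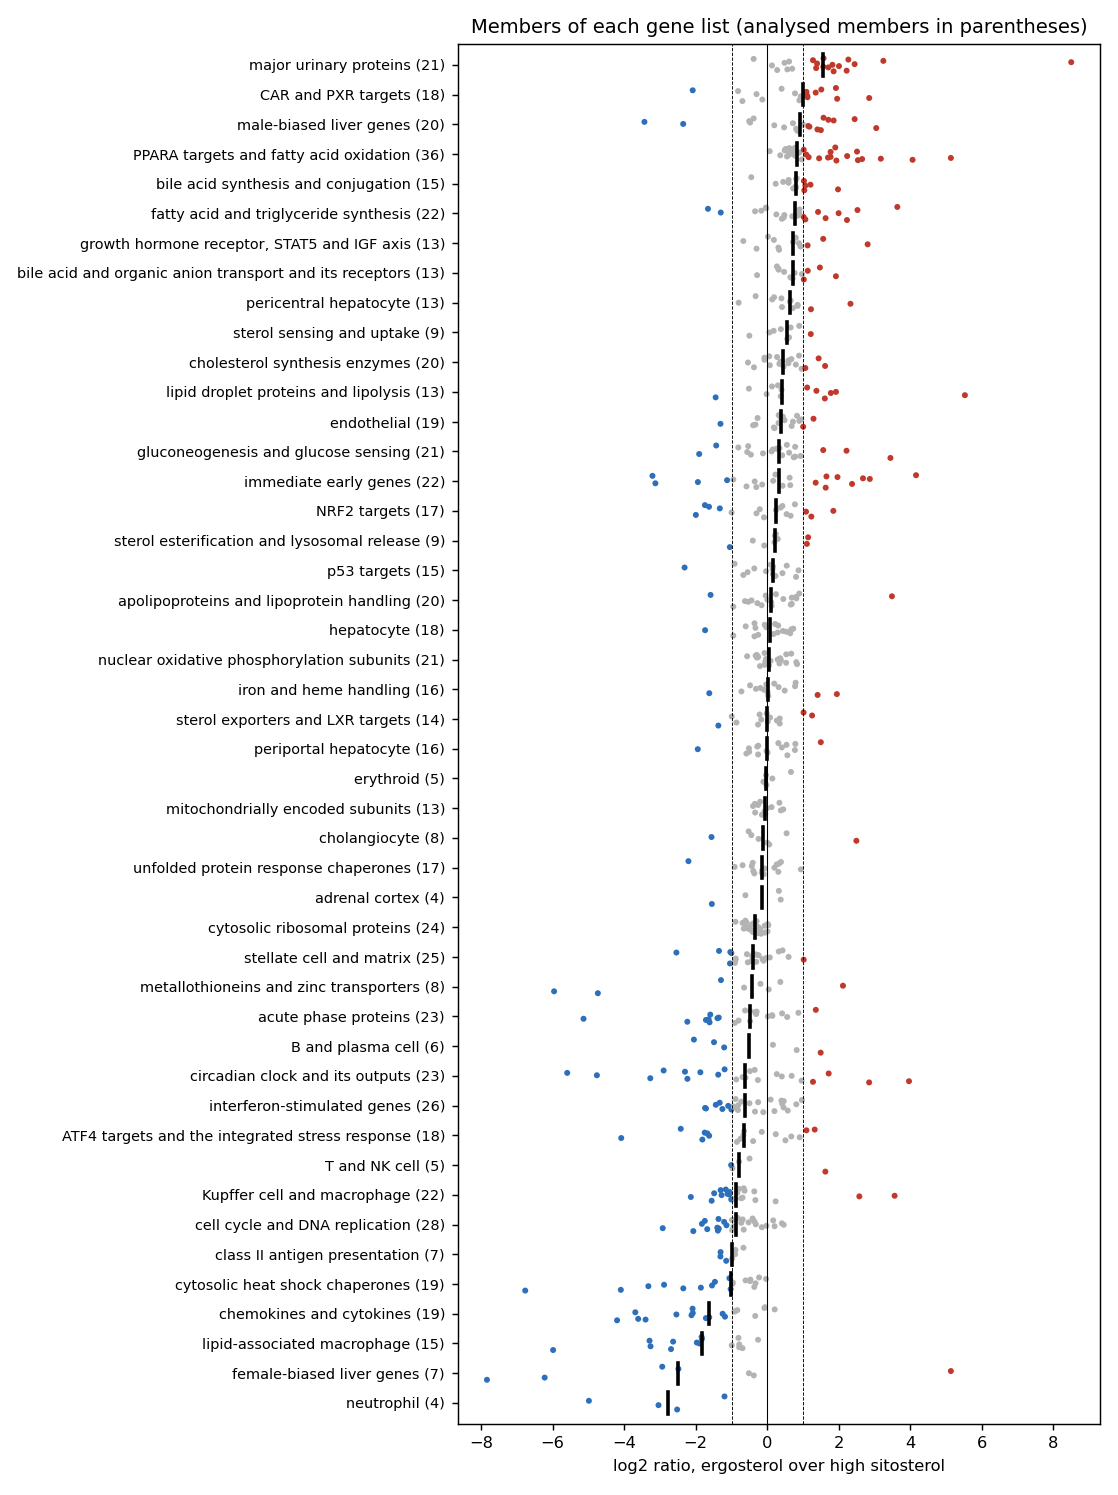
Each point is 1 analysed member of a gene list placed by its log2 ratio of ergosterol over high sitosterol (x axis), red when called higher, blue when called lower and grey otherwise, and the black bar is the list's median. Lists run from the lowest median at the bottom to the highest at the top, dashed lines mark 2-fold, and Mup15 is drawn at the edge of 8.5.

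Sterol export genes did not move together. Abcg5, the partner of the deleted gene (chr17:84658234-84683011 on GRCm38, as all gene positions here), stood at 188 scaled CPM on high sitosterol and 72.8 on ergosterol, against 11.7 on low sitosterol and 132 on stigmasterol. The ergosterol liver was therefore lower than the high sitosterol liver, with a log2 ratio of -1.37 (interval -1.43 to -1.31), and higher than the low sitosterol liver. Abcg8 itself, on the opposite strand beside it (chr17:84676302-84700333), was read at 10.6 on high sitosterol, 8.84 on ergosterol, 1.25 on low sitosterol and 11.6 on stigmasterol. The labels do not say which part of Abcg8 is deleted, and its annotated span overlaps that of Abcg5, so its counts do not check the genotype. Of the 14 sterol exporters and LXR targets, all analysed, 2 were higher and 1 was lower, with a median that rounds to 0. After the length groups were set to equal medians, 1 was higher and 3 were lower.

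Among LXR targets the 2 higher members act in lipid handling. Pltp, which transfers phospholipids between lipoproteins, rested at 91.3 on high sitosterol and 218 on ergosterol (log2 ratio 1.25). Scd1, which introduces the unsaturated bond of oleate, read 14774 and 29854 (log2 ratio 1.01), while low sitosterol (15583) and stigmasterol (13665) lay near high sitosterol. The call of Scd1 ended under scaling by total counts (0.98), under upper-quartile scaling (0.94) and after the length groups were set to equal medians (0.86). Srebf1, the regulator of fatty acid synthesis, differed little at 399 and 355 (log2 ratio -0.17).

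Cholesterol synthesis enzymes tended upward on ergosterol without a common step. Of 20 analysed, 3 were higher and none was lower, 16 had a positive ratio, and the median was 0.44. Pmvk (phosphomevalonate kinase) read 18.1 on high sitosterol and 55.4 on ergosterol, with 43.2 on low sitosterol and 22.7 on stigmasterol. Hsd17b7, a reductase of late sterol synthesis, read 10.04 and 27.2, and Hmgcs1, which makes HMG-CoA, 64.4 and 135 (log2 ratio 1.06, but 0.99 under upper-quartile scaling). In all 3 the ergosterol liver lay at or above the low sitosterol level, and the high sitosterol liver was the lowest of the 4. Sqle, which encodes the squalene epoxidase, was not called and pointed the other way (20.3 and 14.0; log2 ratio -0.54).

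Sterol sensing and storage followed the same uneven pattern. Of 9 analysed genes of sterol sensing and uptake (10 listed), 1 was higher: Insig2, which holds SREBP in the endoplasmic reticulum, at 133 on high sitosterol and 308 on ergosterol (log2 ratio 1.22). Both hydrolases that free cholesterol from its esters were called higher, the lysosomal Lipa (138 and 298; log2 ratio 1.11) and the microsomal Nceh1 (17.0 and 37.5; 1.14). Soat1, which forms the esters, was called lower at 8.96 and 4.33 (-1.05), but its deposited TPM gave 0.18 on the log2(TPM + 0.1) scale, so its direction is uncertain. The list of 9 esterification and release genes held 2 higher and 1 lower, with a median of 0.21.

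Bile acid synthesis genes were mostly higher in the ergosterol liver. Of 15 analysed (16 listed), 5 were higher, none was lower and 14 had a positive ratio, with a median of 0.81. Cyp8b1, the sterol 12-alpha-hydroxylase that sets the share of cholic acid (chr9:121914356-121916305), read 159 on high sitosterol and 627 on ergosterol, a 3.94-fold difference (interval 3.84 to 4.04). The low sitosterol liver lay between them at 343 and the stigmasterol liver below at 73.1. Cyp7a1, the rate-limiting enzyme of the classical pathway (chr4:6265612-6275633), read 70.7 and 145, with only 13.4 on low sitosterol and 37.3 on stigmasterol. Its log2 ratio of 1.04 was 0.96 under upper-quartile scaling and 0.94 after the length groups were set to equal medians, both below 2-fold, while its deposited TPM of 17.9 and 66.1 differed more. Akr1d1, which reduces the steroid ring (56.8 and 131; log2 ratio 1.21), Hsd3b7 (285 and 596; 1.07) and the peroxisomal side-chain enzyme Hsd17b4 (223 and 454; 1.03) were the other 3 called. Under upper-quartile scaling 2 of the 15 were higher, with Hsd3b7 at 0.99 and Hsd17b4 at 0.95, and Hsd17b4 was also below 2-fold under scaling by total counts (0.99). Cyp7b1, of the alternative pathway, was 72.7 and 127 and was not called (0.81).

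Transporters of bile acids and organic anions showed the same direction, 4 higher and none lower of 13 analysed (15 listed), with a median of 0.71. The basolateral exporter Abcc3 read 63.9 on high sitosterol and 242 on ergosterol (log2 ratio 1.92). Nr0b2, which encodes the repressor SHP and is a target of FXR, read 20.6 and 57.2 (1.47), and the uptake carrier Slco1b2 read 317 and 695 (1.13). The canalicular bile salt pump Abcb11 read 261 and 531 (1.02), but 219 and 262 in deposited TPM, where it was not called. Its ratio was also below 2-fold after the length groups were set to equal medians (0.87). For Nr0b2 and Abcc3 the ergosterol liver was the highest of the 4, with low sitosterol at 35.8 and 54.8 and stigmasterol at 18.4 and 122.

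PPARA targets and fatty acid oxidation genes formed the most uniform of the metabolic lists. All 36 members were analysed and all 36 ratios were positive, against a background median of 0.03. Of the 36, 16 were called higher and none lower, and the median was 0.84. Cyp4a14, a fatty acid omega-hydroxylase (chr4:115486200-115496142), read 60.5 on high sitosterol and 1011 on ergosterol, with 14.1 on low sitosterol and 377 on stigmasterol. The ratio was 16.7-fold (16.1 to 17.4), and the ergosterol liver was the highest of the 4. Its neighbour Cyp4a10 read 174 and 1007 (log2 ratio 2.54) and Cyp4a32 5.57 and 35.1 (2.65). Reads of these near-identical copies cannot be assigned with certainty, so their sum over Cyp4a10, Cyp4a14, Cyp4a31 and Cyp4a32 is safer: 248 on high sitosterol, 2070 on ergosterol, 97.5 on low sitosterol and 694 on stigmasterol, a log2 ratio of 3.06.

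The acyl-CoA thioesterases, which release free fatty acids from CoA, were higher as a family. Acot3 read 0.626 on high sitosterol and 22.4 on ergosterol, a log2 ratio of 5.13 (4.63 to 5.74), with 0.513 and 5.97 on low sitosterol and stigmasterol. It reached 1 CPM only on ergosterol, so the filter fixed its direction. Acot1 read 9.28 and 83.9 (3.18), and the sum over Acot1 to Acot6 reached 141 on ergosterol (2.68). In that sum stigmasterol, at 126, was near ergosterol, and low sitosterol, at 22.7, was near high sitosterol. Vnn1, a pantetheinase and PPARA target, read 16.1 and 91.6 (2.51). Ppara itself read 17.5 and 67.0 (1.93), while both reference livers stood at 17.0. Its deposited TPM differed less, at 28.0 and 43.1. The smallest ratio of the list was that of Fabp1, the fatty acid binding protein of liver, at 0.07.

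Genes of fatty acid and triglyceride synthesis were higher in some steps and lower in others. Of 22 analysed, 8 were higher and 2 lower, with a median of 0.77. The precursor enzymes stood out: Acly, which makes cytosolic acetyl-CoA, read 86.4 on high sitosterol and 405 on ergosterol (log2 ratio 2.23), and Me1, which supplies NADPH, read 141 and 564 (1.99). In both the low sitosterol liver (276 and 646) was near ergosterol, and the stigmasterol liver (94.8 and 169) was near high sitosterol. Gpam, which starts glycerolipid synthesis, read 15.0 and 86.5 (2.52), and was 21.3 and 29.8 in the reference livers. Mogat1, a monoacylglycerol acyltransferase, read 0.281 and 3.61 from 13 and 161 counts (3.64, interval 2.87 to 4.63). It passed the 1 CPM filter only through the ergosterol library, which fixed its direction. Acacb, whose product malonyl-CoA restrains fatty acid import into mitochondria, read 78.0 and 242 (1.63). Fasn, the fatty acid synthase, was not called at 963 and 1324 (0.46), and Lpin1, a phosphatidate phosphatase, was lower at 423 and 134 (-1.66).

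Lipid droplet genes held 6 higher and 1 lower of 13, with a median of 0.40. Plin2, a coat protein whose level follows stored neutral lipid, read 292 on high sitosterol and 892 on ergosterol (log2 ratio 1.61), with 468 on low sitosterol and 811 on stigmasterol. Cidec, which fuses droplets, read 4.86 and 16.7 (1.78), and Fitm1 and Fitm2, which help droplets form, were higher by 1.92 and 1.37. Cidea had 1 count against 66, a 46.1-fold ratio with an interval of 11.9 to 2750. It reached 1 CPM only on ergosterol, so the filter fixed its direction. Plin4 was the lower member, at 28.4 and 10.4 (-1.44).

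Lipoprotein genes were level by comparison, with 1 higher and 1 lower of 20 and a median of 0.12. The higher was the VLDL receptor gene Vldlr, at 0.475 and 5.43 (log2 ratio 3.49). It reached 1 CPM only on ergosterol, so the filter fixed its direction. The lower was Angptl8, an insulin-responsive inhibitor of lipoprotein lipase, at 80.5 and 26.8 (-1.59). Apoa1, the main protein of HDL, read 17076 and 8838 (-0.95) and was not called.

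Glucose metabolism genes had calls in both directions. G6pc, which releases glucose from glucose 6-phosphate (chr11:101367561-101377903), read 42.4 on high sitosterol and 462 on ergosterol, a 10.9-fold ratio (10.4 to 11.4). The low sitosterol liver (501) was as high as ergosterol and stigmasterol stood at 240, so the high sitosterol liver was the one apart. Irs2, an adaptor of the insulin receptor that insulin represses, read 12.8 and 59.4 (log2 ratio 2.22), and Igfbp1 132 and 391.6 (1.56). Pfkfb3, which promotes glycolysis, was lower at 20.01 and 7.43 (-1.43). Of 21 genes analysed, 3 were higher and 2 lower, with a median of 0.34. The sources used here do not give the feeding state of the mice, and its part in these values was not tested.

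**Figure D4:**
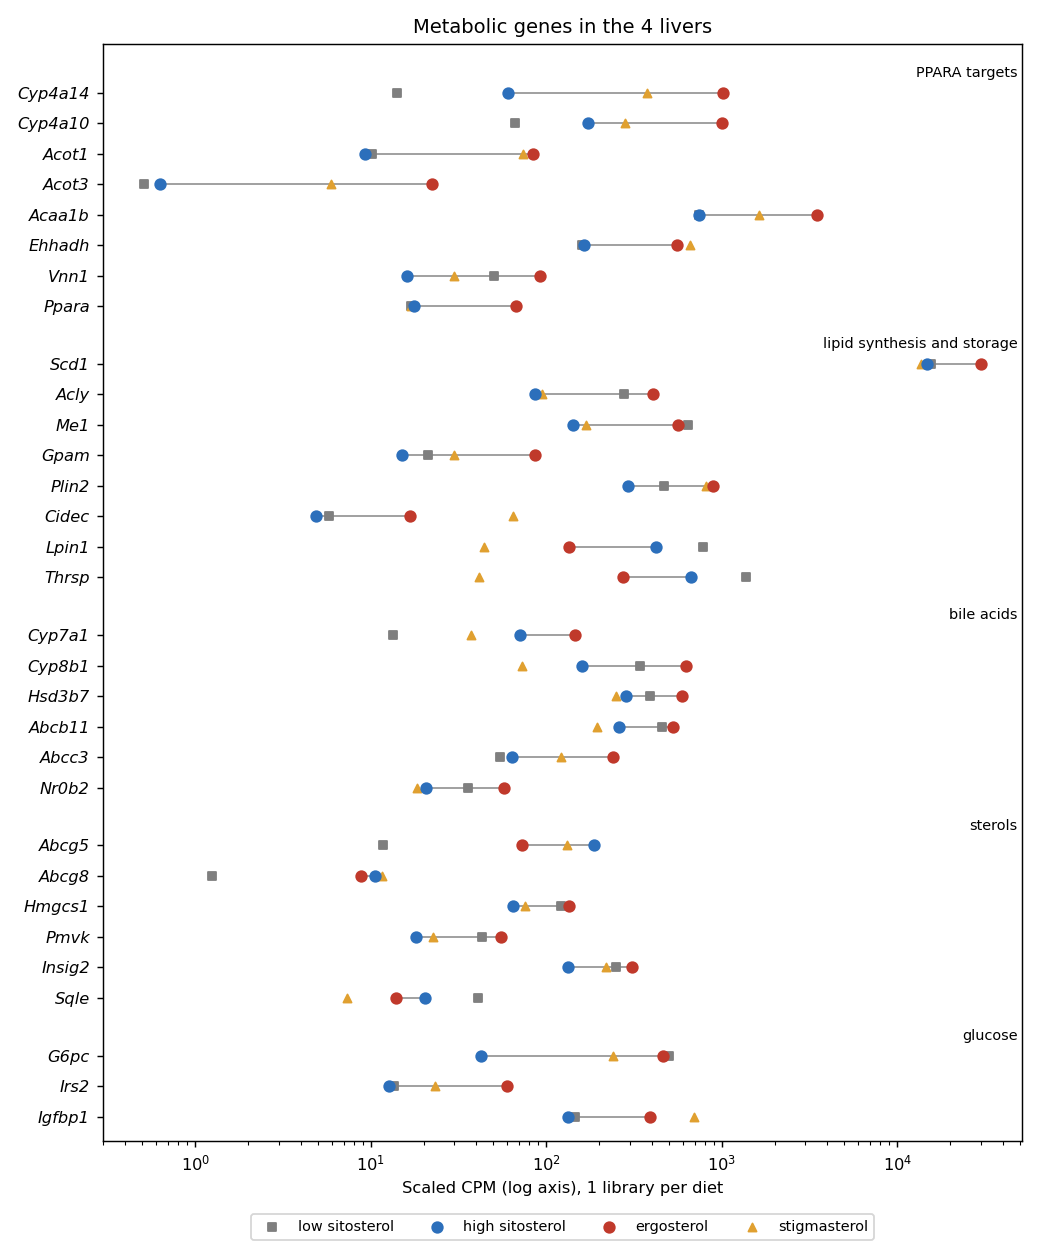
The scaled CPM (x axis, log scale) of metabolic genes in 4 livers, 1 library per diet, with a grey line joining high sitosterol (blue) and ergosterol (red). Cyp4a14 spans 60.5 to 1011 between these 2 diets, and G6pc 42.4 to 462.

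Genes of foreign-compound metabolism were more often higher, 9 higher and 1 lower among 18 CAR and PXR targets analysed (20 listed), with a median of 0.99. Cyp2c37 read 28.8 on high sitosterol and 207 on ergosterol (log2 ratio 2.85), with 158 on low sitosterol and 4.59 on stigmasterol. Cyp2c29 read 292 and 1133 (1.95), Aldh1a1, a retinaldehyde dehydrogenase, 457 and 1302 (1.51), and the carboxylesterase gene Ces2a 101 and 259 (1.35). The sum over 15 Cyp2c genes, whose reads can be shared between copies, differed less, at 2089 and 3256 (0.64). The lower member was Alas1, the rate-limiting enzyme of heme synthesis, at 818 and 193 (-2.09). NRF2 targets, which answer to oxidants, were split into 3 higher and 4 lower of 17, with a median of 0.24: the glutathione transferase gene Gsta4 read 13.2 and 47.5 (1.85), and the heme oxygenase gene Hmox1 82.5 and 20.7, which was 3.99-fold lower.

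Cytosolic heat shock chaperones were lower in the ergosterol liver throughout the list. All 19 ratios were negative, 10 were called lower and none higher, and the median was -1.03. Hspa1a, an inducible Hsp70 gene (chr17:34969190-34972156), read 449 on high sitosterol and 4.11 on ergosterol, with 9.04 on low sitosterol and 2.35 on stigmasterol. The ratio was 109-fold (94.6 to 127), and the high sitosterol liver stood apart from the 3 others. Its close copy Hspa1b read 793 and 46.4, with 74.6 and 7.26 in the reference livers. Because reads of the copies can be exchanged, their sum was taken, which read 1243 and 50.5 (log2 ratio -4.62). Their co-chaperone Dnajb1 read 250.7 and 25.01 (-3.33), the small chaperone Hspb1 339 and 45.8 (-2.89), the nucleotide exchange factor Hsph1 298 and 58.6 (-2.35) and Hsp90aa1 585 and 162 (-1.86). In each of these 4 genes the low sitosterol level (47.9, 81.2, 112 and 329) was also above the ergosterol level.

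The metallothioneins, small proteins that bind zinc and copper, were the next large difference. Mt2 (chr8:94172664-94173568) read 510 on high sitosterol and 8.17 on ergosterol, with 70.4 on low sitosterol and 247 on stigmasterol, a 62.3-fold ratio (56.3 to 69.4). Mt1, its neighbour, read 914 and 34.3, with 122 and 398 in the reference livers (log2 ratio -4.74). The ergosterol liver was the lowest of the 4 for both. The zinc importer gene Slc39a4 was lower at 96.6 and 39.3 (-1.30), and Slc30a10, which exports manganese, was higher at 10.97 and 47.6 (2.12). The other 4 of the 8 genes in this list, the sensor gene Mtf1 among them, were not called. Since metallothionein genes answer to metals through repeated short elements, the sequence before the annotated start of Mt2 is shown (RefSeq, GRCm38.p6, 5′ to 3′), with matches to TGCACNC or TGCGCNC on either strand in capitals.
Mt2 (chr8:94172368-94172617, plus strand): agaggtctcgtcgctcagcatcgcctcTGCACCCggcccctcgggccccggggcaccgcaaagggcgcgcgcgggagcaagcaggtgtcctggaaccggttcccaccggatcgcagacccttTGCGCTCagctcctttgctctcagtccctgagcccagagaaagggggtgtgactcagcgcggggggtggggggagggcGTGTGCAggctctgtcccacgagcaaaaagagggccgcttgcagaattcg
These 250 bases held 3 matches, and 1.26% of 32851 promoter windows of this length held 3 or more (21.4% held at least 1). The window of the neighbouring Mt1, also lower, held 1 match, and that of Slc30a10, which was higher, held 3. A match describes letters only.

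Genes of the integrated stress response leaned lower, 2 higher and 6 lower of 18 analysed (19 listed), with a median of -0.66. Asns (asparagine synthetase) read 3.61 on high sitosterol and 0.202 on ergosterol from 167 and 9 counts (log2 ratio -4.08, interval -5.31 to -3.20). Asns and Psat1, another lower member, reached 1 CPM only on high sitosterol, so the filter fixed their direction. The sum over all 19 listed, which the filter does not touch, was 871 scaled CPM on high sitosterol and 1007 on ergosterol. The stress regulators Nupr1 (12.8 and 2.38; -2.42) and Ddit3, which encodes CHOP (24.4 and 6.94; -1.82), were lower too. The hormone gene Fgf21, also a PPARA target, was higher at 5.31 and 11.4 (1.10). The chaperones of the unfolded protein response held 1 lower call of 17, Derl3 (8.94 and 1.93; -2.20), and their median of -0.14 became 0.03 on deposited TPM.

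Genes of lipid-associated macrophages, the cells that gather around lipid-laden or dying hepatocytes, were lower in the ergosterol liver. All 15 ratios were negative, 9 were called lower, and the median was -1.84. Gpnmb, a membrane glycoprotein of lipid-loaded macrophages (chr6:49036546-49070929), read 20.7 on high sitosterol and 0.314 on ergosterol from 957 and 14 counts, with 0.0977 on low sitosterol and 35.3 on stigmasterol. The ratio was 63.5-fold (39.0 to 121), with the ergosterol and low sitosterol livers together at the bottom. Of the 2 libraries compared, Gpnmb reached 1 CPM only on high sitosterol, so the filter fixed its direction. Trem2, a lipid receptor, read 10.21 and 1.57 (log2 ratio -2.69), the elastase gene Mmp12 10.7 and 1.10 (-3.26), the lysosomal tetraspanin gene Cd63 45.0 and 4.58 (-3.29) and the lectin gene Lgals3 47.0 and 7.56 (-2.63). Low sitosterol was at 1.27, 0.366, 7.67 and 7.30 for these 4 genes, below high sitosterol in each. Stigmasterol was at 25.01, 31.1, 126 and 65.2, above high sitosterol. Summed over all 15 genes, low sitosterol (1437) was instead near high sitosterol (1487), with ergosterol at 921 and stigmasterol at 2455. In whole liver, fewer cells of a type and less RNA per cell cannot be told apart.

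General macrophage and Kupffer cell markers were divided. Of 22 analysed (23 listed), 10 were lower and 2 higher, with a median of -0.86. After the length groups were set to equal medians, 7 were lower and 2 higher. The summed level of the list was 1430 on high sitosterol, 775 on ergosterol, 511 on low sitosterol and 1049 on stigmasterol. The scavenger receptor gene Marco read 18.1 and 4.11 (log2 ratio -2.14), the lysosomal Cd68 35.3 and 12.0 (-1.56) and lysozyme gene Lyz2 157 and 56.0 (-1.48). The 2 higher members were Cd163 and Timd4. Cd163, the haemoglobin scavenger receptor, read 0.972 and 11.6 (3.56), and Timd4, a receptor for dying cells, 1.14 and 6.87 (2.57). Both were detected in low sitosterol (8.21 and 2.98) and low in stigmasterol (0.235 and 0.205). Cd163 reached 1 CPM only on ergosterol, so the filter fixed its direction. The Kupffer cell lectin gene Clec4f (218 and 131; -0.73) and Adgre1, a general macrophage gene (15.4 and 18.1; 0.23), were not called and differed in sign. All 7 class II antigen presentation genes had negative ratios and 3 were called lower, such as H2-Eb1 at 81.2 and 32.7 (-1.31).

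Chemokines and cytokines were lower, with 12 lower and none higher of 19 analysed (25 listed) and a median of -1.62. Ccl2, Ccl3, Ccl4, Cxcl2 and Cxcl14 reached 1 CPM only on high sitosterol, so the filter fixed their direction. The sum over all 25 listed, which the filter does not touch, was 248 scaled CPM on high sitosterol and 103 on ergosterol. Ccl2, which draws monocytes from blood, read 7.21 on high sitosterol and 0.382 on ergosterol (334 and 17 counts; log2 ratio -4.20), with 1.27 on low sitosterol and 3.73 on stigmasterol. Cxcl14 read 8.25 and 0.628 (-3.69), and Cxcl1, which draws neutrophils, 28.8 and 6.62 (-2.12). Ccl3 and Ccl4 each had 6 counts on ergosterol against 71 and 82. The neutrophil markers S100a8 (86 and 14 counts) and S100a9 (175 and 20 counts) were lower by the same rule (-2.52 and -3.04). Of 13 neutrophil markers only 4 reached 1 CPM, and all 4 were called lower. S100a8, S100a9 and Ngp (49 and 1 counts) passed only through the high sitosterol library, so the filter fixed their direction. The whole list summed to 14.0 and 3.7 scaled CPM, and Ly6g, a defining gene, was at 0 in both. The macrophage sum given above moved the same way as these genes, and its part in them was not tested.

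Acute phase proteins, made by hepatocytes in response to cytokines, were selectively lower, 8 lower and 1 higher of 23 with a median of -0.48. Lcn2, a siderophore-binding lipocalin, read 99.2 on high sitosterol and 2.81 on ergosterol, with 6.89 on low sitosterol and 172 on stigmasterol, a 35.2-fold ratio (29.6 to 42.6). Saa2 read 86.0 and 28.1 (log2 ratio -1.61) and Saa1 154 and 81.8 (-0.91, not called), and their sum, which does not depend on how reads were divided between them, was 239.7 and 109.9 (-1.12). The pentraxin gene Apcs (287 and 95.2; -1.59) and the orosomucoid gene Orm2 (55.8 and 17.0; -1.72) were lower as well. The iron regulator Hamp, also an acute phase gene, was level at 574 and 585 (0.03). Interferon-stimulated genes held 7 lower and none higher of 26, median -0.61, led by the antiviral genes Oas2 (8.05 and 2.40; -1.74), Oas1g (7.32 and 2.22; -1.71) and Usp18 (23.7 and 8.75; -1.44).

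Cell cycle genes were lower in 11 of 28 analysed (31 listed) and higher in none, with a median of -0.89. The proliferation marker Mki67 read 7.95 on high sitosterol and 1.89 on ergosterol (log2 ratio -2.07), with 0.342 on low sitosterol and 32.5 on stigmasterol. Ergosterol thus lay between low and high sitosterol. Ccne1, the cyclin of entry into DNA replication, read 3.82 and 0.494 (-2.92), and the mitotic gene Birc5 3.45 and 0.965 (-1.83). Ccne1, Birc5, Ccnb2 and Foxm1 were among the lower members that passed the 1 CPM filter only through the high sitosterol library. The filter fixed their direction. The sum over all 31 listed, which the filter does not touch, was 243 scaled CPM on high sitosterol and 138 on ergosterol. Which cells carried these transcripts is not resolved in whole liver, and the part of macrophage number was not tested. The inhibitor gene Cdkn1a was 20.6 and 36.03 (0.80), not called. The p53 targets held 1 call among 15, Pmaip1 at 4.06 and 0.808 (-2.31), which also passed the filter only through high sitosterol.

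Genes with a known sex bias in mouse liver differed in both directions. Cyp2a4, a steroid hydroxylase that is female-biased (chr7:26307169-26315088), had the lowest ratio of all genes named here. It read 198 on high sitosterol and 0.853 on ergosterol from 9167 and 38 counts, with 1.17 on low sitosterol and 160 on stigmasterol. The ratio was 229-fold (169 to 328), with ergosterol and low sitosterol alike at the bottom. Reads can be shared with its copy Cyp2a5, and the sum of both differed far less, at 648 and 347 (log2 ratio -0.90). Sult1e1, the oestrogen sulphotransferase, read 31.0 and 0.404, with 0.0489 and 6.31 in the reference livers (-6.22). Of the 20 female-biased genes listed only 7 reached 1 CPM, and of these 4 were lower and 1, Acot3, higher. Cyp2a4 and Sult1e1 reached 1 CPM only on high sitosterol and Acot3 only on ergosterol, so the filter fixed the direction of these genes.

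Male-biased genes were more often higher, 9 higher and 2 lower of 20 analysed (21 listed), with a median of 0.92. The list shares Mup1, Mup7, Mup12, Mup20 and Mup21 with the major urinary proteins below, and Mup1, Mup7 and Mup12 are among the 9. Elovl3, an elongase of very long fatty acids, read 63.4 on high sitosterol and 524 on ergosterol, with 393 on low sitosterol and 19.9 on stigmasterol (log2 ratio 3.05). The 2 lower members went strongly the other way: Serpina1e, an alpha-1-antitrypsin gene, at 8965 and 829 (-3.44) and the selenium-binding protein gene Selenbp2 at 257 and 50.4 (-2.35). The 5 Serpina1 copies together differed little, at 32612 and 24787 (-0.40), and reads of the copies cannot be told apart with certainty. In the growth hormone axis, which sets much of this sex bias, 3 of 13 genes were higher and none lower: the repressor gene Bcl6 (7.56 and 52.9; 2.81), Igfbp1, and Stat5b (26.1 and 57.0; 1.13, but 0.97 after the length groups were set to equal medians).

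The major urinary proteins, pheromone carriers made by male liver, were higher as a family. Of 21 analysed copies, 14 were higher and none lower, with a median of 1.57. Their summed level was 14627 on high sitosterol and 30207 on ergosterol, against 87966 on low sitosterol and 4113 on stigmasterol, a log2 ratio of 1.05. Ergosterol thus lay between low and high sitosterol. Mup15 had a count of 0 on high sitosterol and 23005 on ergosterol, at least 7972-fold higher with 3 counts taken as the limit of 0 per library. It also had 0 on stigmasterol and stood at 2384 on low sitosterol. Mup15 thus passed the 1 CPM filter only through the ergosterol library, which fixed its direction. The copies are nearly identical, so a value for 1 copy is uncertain and the sum is the safer figure. Mup7 read 2086 and 6818 (1.71), and its upstream sequence is given with those of the clock genes.

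Clock genes had calls in both directions. Of 23 analysed, 4 were higher and 9 lower, with a median of -0.61. The activator gene Arntl, which encodes BMAL1, read 1.77 on high sitosterol and 12.8 on ergosterol (log2 ratio 2.85), and its partner Npas2 0.237 and 3.86 (3.96, interval 3.15 to 5.05, from 11 and 172 counts). Clock (15.3 and 37.1; 1.28) and Nfil3, a repressor of D-box genes (18.8 and 61.8; 1.72), were the other 2 higher members. Dbp, the activator of D-box genes (chr7:45705088-45710203), read 168 and 6.17, a 27.2-fold ratio (24.1 to 30.8). Ciart, a repressor of CLOCK and BMAL1, read 20.1 and 0.404, a 48.3-fold ratio (31.2 to 84.1). Per3 (13.8 and 1.41; -3.27) and Usp2 (24.7 and 3.30; -2.90) were lower as well. Npas2 reached 1 CPM only on ergosterol and Ciart only on high sitosterol, so the filter fixed their direction. For Dbp, Ciart and Usp2 the low sitosterol liver (126, 7.70 and 11.7) was nearer high sitosterol and the stigmasterol liver (8.13, 0.587 and 4.31) nearer ergosterol. For Per3 both reference livers (4.18 and 2.65) lay between the 2 compared. The sources used here do not give the time of collection, so time of day and diet cannot be told apart for these genes.

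The E-box CACGTG is the site of CLOCK and BMAL1, and the D-box, searched as TTATGNAA on both strands, is the site through which Dbp and Nfil3 act in opposite ways. The 250 bases before the RefSeq start are shown for the lower clock genes Ciart and Per3, for Alb (albumin) and for Mup7. They are written 5′ to 3′ (GRCm38.p6). Capitals mark CACGTG in Ciart and matches to TTATGNAA on either strand in the other 3.
Ciart (chr3:95882229-95882478, minus strand): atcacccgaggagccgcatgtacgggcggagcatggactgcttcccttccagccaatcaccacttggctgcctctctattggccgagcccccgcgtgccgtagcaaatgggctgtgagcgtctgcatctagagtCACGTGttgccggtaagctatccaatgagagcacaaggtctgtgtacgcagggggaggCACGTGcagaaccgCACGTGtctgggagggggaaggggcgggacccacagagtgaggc
Per3 (chr4:151044666-151044915, minus strand): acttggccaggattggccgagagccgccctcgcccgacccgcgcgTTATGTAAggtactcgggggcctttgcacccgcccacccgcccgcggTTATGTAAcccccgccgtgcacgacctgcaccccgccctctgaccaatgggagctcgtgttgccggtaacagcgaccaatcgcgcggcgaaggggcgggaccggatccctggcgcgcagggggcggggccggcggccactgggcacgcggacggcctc
Alb (chr5:90460620-90460869, plus strand): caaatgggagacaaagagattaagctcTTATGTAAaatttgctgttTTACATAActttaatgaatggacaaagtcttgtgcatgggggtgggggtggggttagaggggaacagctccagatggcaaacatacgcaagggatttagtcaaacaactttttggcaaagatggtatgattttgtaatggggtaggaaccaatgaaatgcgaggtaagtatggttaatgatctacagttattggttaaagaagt
Mup7 (chr4:60070476-60070725, minus strand): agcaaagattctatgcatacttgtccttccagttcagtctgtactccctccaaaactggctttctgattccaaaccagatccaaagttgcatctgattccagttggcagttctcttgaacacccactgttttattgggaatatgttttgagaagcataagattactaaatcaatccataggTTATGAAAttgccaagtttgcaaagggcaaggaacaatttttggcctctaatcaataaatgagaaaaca
The capitals mark these letters only, not a known binding site. Ciart held 3 E-boxes, as did 0.0609% of the 32851 windows with 3 or more (6.02% held at least 1). Per3 and Alb held 2 matches to TTATGNAA each, as did 0.128% of windows with 2 or more (3.07% held at least 1). D-boxes spelled otherwise were not searched and are not in capitals. Of these 2 genes, Per3 had a log2 ratio of -3.27 and Alb, which was not called, of -0.36. Of 14 Mup genes with a window, 10 held a D-box, which their common origin makes 1 observation rather than 10. Of 6 lower clock genes with a window, 3 held an E-box and 1 a D-box, and of 4 higher ones none held either. Of 8 lower heat shock genes with a window none held the heat shock element searched (in 0.466% of windows). Of 12 higher PPARA list genes with a window none held the PPAR direct repeat searched (in 0.0335% of windows). No match says only that these letters are not in these windows.

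Immediate early genes, which respond within minutes to hormones and handling, were also divided, with 8 higher and 4 lower of 22 and a median of 0.33. Gadd45g, a stress-response gene (chr13:51846678-51848468), read 10.8 on high sitosterol and 192 on ergosterol, a 17.9-fold ratio (16.3 to 19.6), with 15.9 on low sitosterol and 107 on stigmasterol. The phosphatase gene Dusp1 (15.1 and 110; log2 ratio 2.87), the mRNA-decay factor gene Zfp36 (42.9 and 274; 2.68), Egr1 (35.6 and 184; 2.37) and Myc (8.96 and 35.0; 1.96) were higher. Their relatives Gadd45b (10.3 and 1.10; -3.21) and Egr2 (2.05 and 0.224; -3.13) were lower, so members of 1 family lay on opposite sides. Egr2 reached 1 CPM only on high sitosterol, so the filter fixed its direction.

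**Figure D5:**
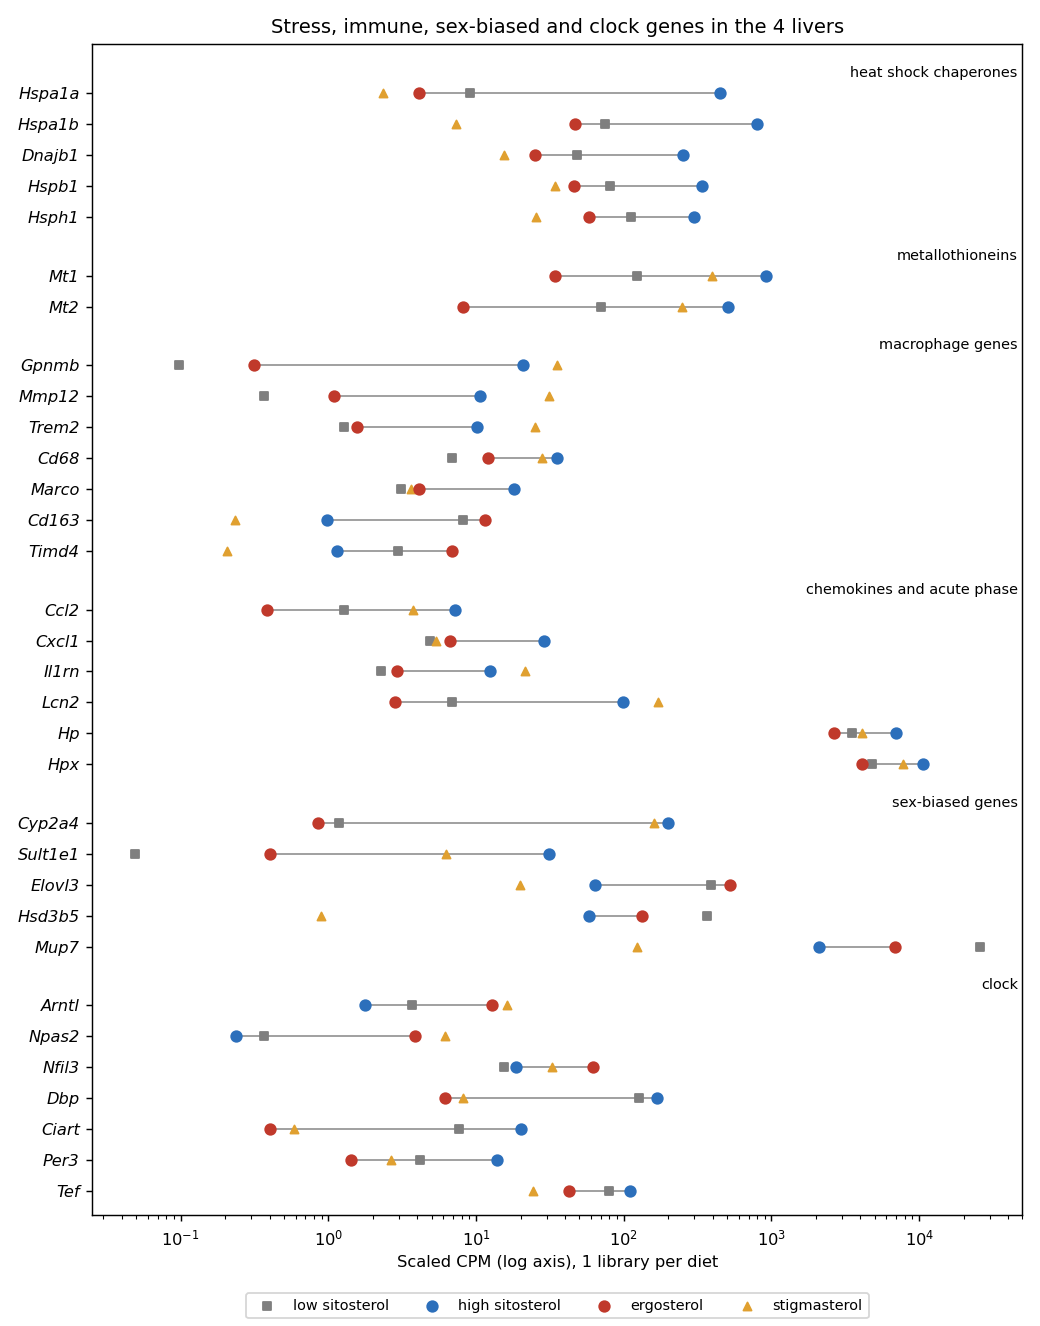
The scaled CPM (x axis, log scale) of stress, immune, sex-biased and clock genes in 4 livers, 1 library per diet, with a grey line joining high sitosterol (blue) and ergosterol (red). Hspa1a spans 4.11 to 449 and Cyp2a4 0.853 to 198 between these 2 diets.

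Hepatocyte identity genes were level. Of 18 analysed, none was higher and 1 was lower, with a median of 0.07. The exception was Foxa3, a liver transcription factor, at 123 on high sitosterol and 37.0 on ergosterol (log2 ratio -1.74). Pericentral genes, of the zone around the central vein, had 2 higher of 13 and a median of 0.63. These were the glutamine synthetase gene Glul (425 and 992; 1.22) and the R-spondin receptor gene Lgr5 (1.34 and 6.76; 2.33). Glul was 1241 on low sitosterol and 124 on stigmasterol, so high sitosterol lay below ergosterol and low sitosterol for this gene. Periportal genes had 1 higher and 1 lower of 16, the glycine decarboxylase gene Gldc (55.0 and 155, a 2.82-fold ratio) and the serine dehydratase gene Sds (718 and 187; -1.94).

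The lists of other cell types given here had calls in both directions. Without the length subtraction, the calls as a share of analysed members were not below the 14.1% called among all genes. The endothelial share was near that background. Stellate cell and matrix genes had 1 higher and 5 lower of 25 (27 listed), median -0.40, with the collagen gene Col1a1 at 14.9 and 7.21 (log2 ratio -1.04) and the collagenase gene Mmp13 at 57 and 9 counts (-2.54). On low sitosterol Col1a1 stood at 10.1 and on stigmasterol at 180. Mmp13 reached 1 CPM only on high sitosterol, so the filter fixed its direction. Endothelial genes had 2 higher (1 after the length groups were set to equal medians) and 1 lower of 19, median 0.37. Of 7 adipocyte markers 2 reached 1 CPM. The complement factor D gene Cfd read 2.61 on high sitosterol and 34.8 on ergosterol, a 13.3-fold ratio (11.1 to 16.1), while Fabp4 was lower (-1.04) and the defining genes Lep and Retn were at 0 in both libraries. T and NK cell markers (5 of 19 analysed) had 1 higher, Cd4 (0.605 and 1.89; 1.62), and 1 lower, Nkg7 (-1.01, but -0.77 after the length groups were set to equal medians). B and plasma cell markers (6 of 12 analysed) had 1 higher, the B cell receptor gene Cd79a (0.432 and 1.23; 1.49), and 3 lower, the antibody genes Igha (4.04 and 0.965; -2.05), Igkc and Jchain. Both lists rested on low counts. Cd4 and Cd79a reached 1 CPM only on ergosterol, and Nkg7, Igha and Jchain only on high sitosterol, so the filter fixed their direction.

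The genes named for the size of their ratio alone belonged to no common list. On the higher side were Rnf125, a ubiquitin ligase gene (3.63 on high sitosterol and 44.4 on ergosterol; log2 ratio 3.61), Mme, which encodes neprilysin (4.81 and 48.7; 3.34), and Slc25a30, a mitochondrial carrier gene (1.36 and 12.6; 3.21). In the case of Slc25a30 the low sitosterol liver (16.5) was level with ergosterol. On the lower side was Tff3, a trefoil peptide gene (142 and 7.12; -4.31). For Tff3 low sitosterol stood at 30.9 and stigmasterol at 25.01, so the high sitosterol liver was the highest of the 4.

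Iron and heme genes had 2 higher and 1 lower of 16 and a median of 0.02. Hamp2, a hepcidin copy, was higher at 52.4 and 139 (1.41), and Bmp6, which induces hepcidin, at 0.540 and 2.11 (1.95). Bmp6 reached 1 CPM only on ergosterol, so the filter fixed its direction. The BMP target Id1 was lower at 20.5 and 6.67 (-1.62).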

How the data were processed

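RNA sequencing values of 4 livers were used, 1 per diet, with ergosterol and high sitosterol compared. Per the labels' protocols, a Qiagen RNeasy kit was used for RNA and a TruSeq v2 kit for libraries. Among the tools in the submitters' processing notes are kallisto 0.43.1, HISAT2 2.0.5 and Trimmomatic 0.33, and the build is mm10; their roles are not stated. Estimated counts, deposited by the authors per gene symbol, were rounded here to whole numbers. The authors also deposited TPM (a transcript's share scaled by its length), used as a check. The sources used here do not state the annotation or how transcripts were joined to genes. A row naming no gene, with 0% of counts, was left out.

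TMM factors came from edgeR 4.0.16 (R 4.3.3) over the 4 livers. Ratios used a prior count of 0.5, and intervals are exact (Clopper-Pearson) binomial 95% intervals of the 2 counts, which cover counting error only. Gene positions and transcript lengths are from GENCODE M21, which matched 32158 symbols, and promoters from RefSeq, found for 163 of the 227 named genes.

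Members and lists were chosen with earlier results of these data known. Named genes are a fixed set, the 12 highest and 12 lowest ratios at 10 CPM or more, and up to 6 called members per list, or up to 3 of the highest level where fewer than 3 were called. Ppara, Clec4f, Adgre1, Clock, Nfil3, Hamp, Mtf1, Ly6g, Lep, Retn and Fabp1, and the genes of the closing observations, were chosen after their values were seen. A few genes that meet these rules are not reported here. Alternatives were other scalings (total counts, TMM over 2 libraries, DESeq2 1.42.0 size factors, upper quartile), deposited TPM with pseudocounts of 0.1 and 1, another prior count, other low-count filters, unrounded counts and other fold limits. The subtraction of the median of 8 transcript-length groups was added after seeing the data.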

Additional observations from a re-analysis of the deposited data

How the results depend on the processing

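No paired analysis was possible because each diet had 1 library. Against 746 higher and 965 lower genes, scalings gave 639 to 746 higher and 965 to 1097 lower, with no call turned. With no low-count filter 1143 were higher and 1723 lower, at 10 CPM 409 and 313 (56.6% of calls higher), at 4-fold 177 and 222, and at 1.5-fold 2002 and 1970. The share higher was 55.1% on log2(TPM + 0.1) and 58.2% on log2(TPM + 1), where 406 genes were lower, and the median over all genes on the former was 0.12. Calls on both TPM scales used the 2-fold limit alone, without a counting interval. Of 180 named calls, 170 remained on log2(TPM + 0.1), which lost Abcb11, Soat1 and Col1a1 among others, and 147 on log2(TPM + 1), which understates low genes and also lost Mki67, Npas2, Vldlr and Pmaip1. Upper-quartile scaling kept 172 and lost Abcb11, Acta2, Cyp7a1, Hmgcs1, Hsd17b4, Hsd3b7, Kdr and Scd1. There were 174 after subtraction of the length-group medians, which lost Abcb11, Cyp7a1, Kdr, Nkg7, Scd1 and Stat5b. Of 11 list medians that changed sign in some setting, 7 lay within 0.1 of 0 and 4 did not. The unfolded protein response median was 0.0256 on log2(TPM + 0.1) and 0.0255 on log2(TPM + 1), that of p53 targets -0.0551 after length adjustment, that of cholangiocyte genes 0.17 on log2(TPM + 0.1) and 0.11 on log2(TPM + 1), and that of B and plasma cell genes 0.96 with no low-count filter. Soat1 turned to 0.18 and 0.13 on the same TPM scales. The cause was not tested. Counting intervals say nothing about variation between mice.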

Other observations

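Several genes outside the lists differed by more than 4-fold, and all were chosen after their values were seen. Chd9, a chromatin remodeller gene, read 850 scaled CPM on high sitosterol and 102 on ergosterol (log2 ratio -3.06), with 504 on low sitosterol and 374 on stigmasterol. The ergosterol liver was thus below the 3 others. Scara5, a ferritin receptor gene, read 35.9 and 2.42 (-3.88), and the reference livers (24.2 and 18.6) lay with high sitosterol.

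Genes of secreted signals and adhesion were among them. Enho, which encodes the peptide adropin, read 14.1 on high sitosterol and 1.35 on ergosterol (log2 ratio -3.38), and the growth factor gene Nrg4 27.9 and 4.15 (-2.75). Vcam1, the endothelial adhesion gene that leukocytes bind, read 72.0 and 12.3 (-2.55), with 14.2 on low sitosterol and 54.8 on stigmasterol. Tnfaip3, a brake on NF-kB signalling, read 12.4 and 2.15 (-2.52). On the higher side, Slc25a25, a mitochondrial nucleotide carrier gene, read 33.4 and 241 (2.85), and Ddah1, which degrades an inhibitor of nitric oxide synthesis, 26.4 and 176.8 (2.74).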
